A study of Mus musculus with 9 samples.

Results

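Complexes II to V of the respiratory chain pass electrons from succinate and ubiquinol to oxygen and make ATP, and most of their subunits are encoded in the nucleus. The 49 genes described here were chosen by name from the 54007 rows of a mouse liver expression table: protein-coding genes called Sdha, Sdhb, Sdhc, Sdhd or Cyc1, or with a symbol that begins with Uqcr, Cox4, Cox5, Cox6, Cox7, Cox8 or Atp5. Complex II has 4 of them, complex III 9, complex IV 18 and complex V 18. The naming rule uses no measured value. Symbols are those of the annotation used, so that Atp5k is Atp5me and Atp5g1 is Atp5mc1 in newer naming. Usmg5 and Atpif1, which carry Atp5 names only in newer naming, are not among the 49, and 8 non-coding rows with a matching symbol were left out. Cox7a2l, a factor of supercomplex assembly, and Atp5s, a coupling factor, are included by their symbols although they are not core subunits.

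The RNA was from livers of C57BL/6 mice aged 98 postnatal days, with 3 libraries in each of 3 groups. The control group (replicates 1, 2 and 4) is labelled only as control, the HFD group (replicates 1, 2 and 3) received a high-fat diet, and the HFD+Pc group (replicates 1, 3 and 4) received a high-fat diet and the gut bacterium *Papillibacter cinnamivorans* by gavage. The HFD+Pc mice thus share the diet of the HFD mice, and the labels name no gavage without bacteria. Mice entered at 6 weeks of age, 15 per group. Sex, dose and the number of mice behind each library are not given, so the spread that p-values rest on is that between libraries, which may in part be technical.

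Complex II (succinate dehydrogenase) and complex III (cytochrome bc1) feed electrons toward cytochrome c, complex IV (cytochrome c oxidase) hands them to oxygen, and complexes III and IV pump protons. Complex V (ATP synthase) lets protons flow back through a ring of c subunits, which turns a central stalk inside a catalytic head. Each of complexes III, IV and V combines a few large catalytic or metal-carrying proteins with many small accessory subunits. The liver relies on this chain to oxidise fatty acids and to pay for gluconeogenesis and urea synthesis. Nuclear respiratory factor NRF1 and the ETS factor GABP are textbook regulators of many of these genes.

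The gene with the largest difference was Atp5k, which encodes the e subunit in the membrane part of ATP synthase, at 63.0 ± 1.37 FPKM in control, 51.7 ± 14.2 in HFD and 8.32 ± 0.139 in HFD+Pc (SD, n = 3). FPKM is the number of reads for a gene, scaled to its length and to the size of the library. Against control, 15 of 42 tested members were lower and 2 were higher in HFD+Pc, where 11.9% and 11.1% of all tested genes were. Among the lower ones, Uqcr11, Cox5b, Atp5o, Uqcrq and Cox6b1 stood at 39.4% to 57.4% of the control mean. HFD livers had 5 members below control and 0 above, beside 5.35% and 4.61% of all tested genes. Without Cox7a1, which entered the test through its control libraries alone, the lower members were 14 of 41 in HFD+Pc and 4 of 41 in HFD. Between the 2 high-fat groups, where 0.628% of all genes passed, only Atp5k (lower in HFD+Pc) and Atp5g1 (higher) passed among the members. Tests are limma's moderated tests on log2(FPKM + 1), adjusted by Benjamini-Hochberg over the 10988 genes that reached 1 FPKM in 3 or more libraries, and "passed", "rose" and "fell" mean an adjusted p under 0.05. In bulk tissue, fewer cells of a type and less RNA per cell cannot be told apart.

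Promoter sequence was taken from RefSeq (GRCm38.p6, a build older than the GRCm39 of the authors' alignment), which held a window of 250 bases before to 50 after the start for 36 of the 48 member symbols. The NRF1 core letters GCGCATGCG, searched on both strands, were in 6 of 36 member windows (16.7%) and in 421 of 17491 windows of protein-coding genes (2.41%). The ETS letters CCGGAAG were in 11 of 36 (30.6%) and in 2080 of 17491 (11.9%), and 13 member windows held either. Of the 15 members lower in HFD+Pc than in control, 13 had a window and 6 of these held either motif, and of 25 tested members that did not pass there, 19 had a window and 6 held either. A match is a description of letters, not a site. The 8 stretches below run from 110 bases before the start to 10 after it, 5′ to 3′ on the gene's strand, with motif letters on either strand in capitals; the NRF1 letters are nearly their own reverse complement, so that a run of 10 capitals is a pair of overlapping matches. They are shown because they belong to the member that differs most (Atp5k), to other lower members (Uqcr11, Cox6b1, Sdhd), to a higher one (Atp5h), and to the 3 genes of subunit c, which encode the same mature protein.
Atp5k, chr5:108434390-108434509, minus strand: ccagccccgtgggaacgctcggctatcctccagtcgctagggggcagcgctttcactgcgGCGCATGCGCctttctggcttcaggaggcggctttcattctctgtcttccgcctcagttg
Uqcr11, chr10:80406812-80406931, minus strand: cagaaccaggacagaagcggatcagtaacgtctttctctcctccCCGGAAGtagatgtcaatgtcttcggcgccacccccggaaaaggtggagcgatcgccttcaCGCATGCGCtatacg
Cox6b1, chr7:30626105-30626224, minus strand: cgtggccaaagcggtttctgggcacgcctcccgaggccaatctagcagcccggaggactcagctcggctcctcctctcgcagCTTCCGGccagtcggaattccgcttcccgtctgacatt
Sdhd, chr9:50603840-50603959, minus strand: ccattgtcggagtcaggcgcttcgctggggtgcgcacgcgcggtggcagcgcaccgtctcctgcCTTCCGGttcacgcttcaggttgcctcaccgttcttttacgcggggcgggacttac
Atp5h, chr11:115419910-115420029, minus strand: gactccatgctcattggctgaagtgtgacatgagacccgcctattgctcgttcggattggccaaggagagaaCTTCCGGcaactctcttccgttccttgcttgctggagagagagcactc
Atp5g1, chr11:96075622-96075741, minus strand: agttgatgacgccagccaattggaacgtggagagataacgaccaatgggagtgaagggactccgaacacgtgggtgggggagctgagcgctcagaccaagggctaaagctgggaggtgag
Atp5g2, chr15:102671038-102671157, minus strand: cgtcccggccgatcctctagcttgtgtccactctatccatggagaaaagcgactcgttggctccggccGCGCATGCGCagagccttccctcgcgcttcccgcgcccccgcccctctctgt
Atp5g3, chr2:73911317-73911436, minus strand: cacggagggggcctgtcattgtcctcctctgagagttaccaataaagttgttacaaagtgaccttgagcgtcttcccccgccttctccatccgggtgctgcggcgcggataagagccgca
The stretches of Atp5k and Atp5g2 hold the overlapping pair of NRF1 letters, that of Uqcr11 holds both motifs, and those of Cox6b1, Sdhd and Atp5h hold ETS letters. Neither motif is in the stretch shown for Atp5g1 or Atp5g3. The motif letters thus stand both in members that were lower and in Atp5h, which was higher.

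The libraries held 16562019 to 18930317 reads, recovered from the FPKM as whole numbers, and 10323 to 10587 genes at 1 FPKM or more. Hepatocyte markers (15 of 15 tested) summed to 69899 to 71339 FPKM in control, 50799 to 55133 in HFD and 58329 to 73584 in HFD+Pc, so that the defining genes of the labelled tissue were abundant in every library. The divisor behind the deposited FPKM was 97.4% to 108% of the recovered reads, highest in HFD replicate 1. With FPKM built on plain read totals, the split over all tested genes in HFD against control was 828 higher and 367 lower, compared with 507 and 588 as deposited, and it was 524 and 346 when each library was rescaled to the same FPKM sum. In HFD+Pc against HFD the split was 17 higher and 98 lower on plain totals, compared with 20 and 49.

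Of the 49 members, 42 passed the filter: 4 of complex II, 9 of III, 12 of IV and 17 of V. The 7 others were at or near 0. Cox4i2, Cox6a2, Cox6b2 and Cox8b, isoforms of lung, muscle, testis and muscle, reached at most 0.421 FPKM in any library, and Cox7b2, Cox8c and a second row named Atp5o had no read in any library. For a gene of 1000 bases, 3 reads, the limit that a count of 0 allows, correspond to 0.16 to 0.179 FPKM, a figure that covers counting error only. Defining genes of striated muscle were as low: 0 of 10 passed the filter, 4 of 10 were at 0 in every library, and the list summed to at most 0.807 FPKM. The filter keeps a gene that is high in only 1 group. Cox7a1 passed through the 3 control libraries alone, so that a lower level in the other groups follows from the filter, and the number of members that passed as lower than control is also given over the 41 others.

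**Figure D1:**
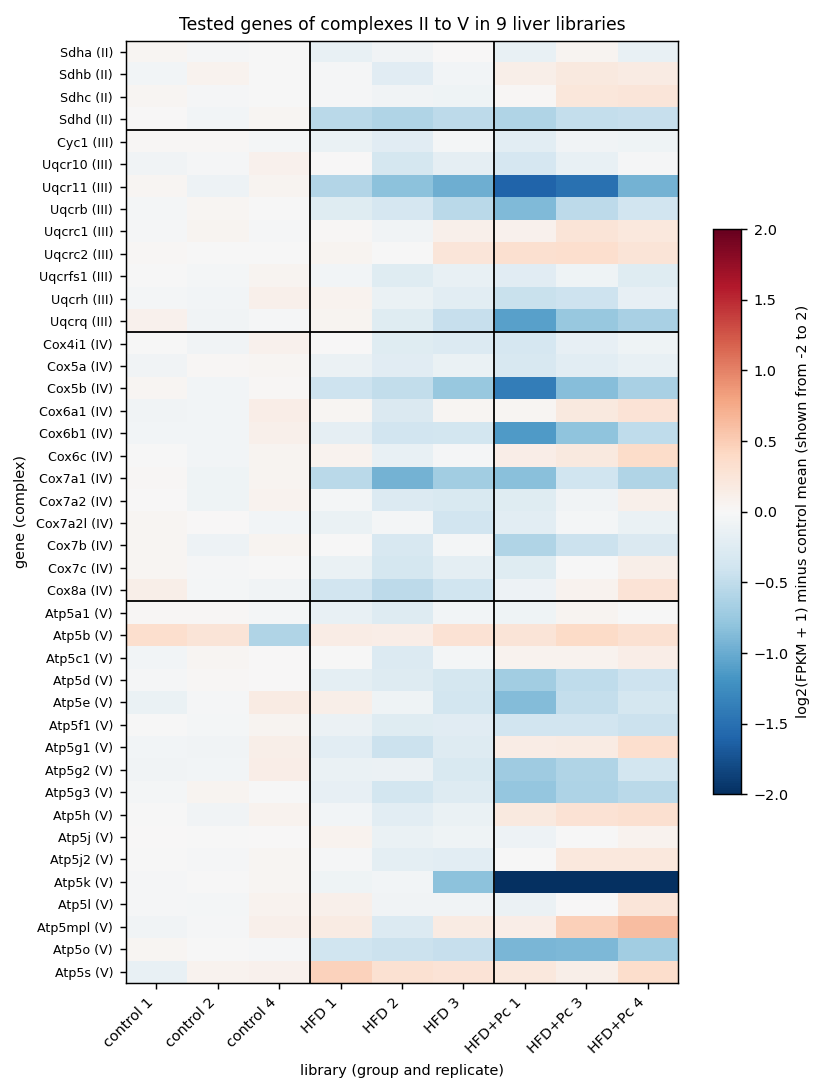
Level of each of the 42 tested genes (rows, by complex) in each of the 9 libraries (columns, by group), as log2(FPKM + 1) minus the mean of the 3 control libraries, with blue below and red above control and colours shown from -2 to 2. Atp5k and Uqcr11 are the darkest rows in HFD+Pc, Sdhd is blue in both high-fat groups, and Atp5b is low in control replicate 4.

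In HFD against control, 5 of 42 members passed (11.9%), beside 9.97% of all tested genes. All 5 were lower (5.35% of all tested genes were), and 0 were higher (4.61% of all); by limma at an unadjusted p under 0.05, 11 were lower and 1 higher, together 28.6% of the members beside 27.8% of all tested genes (14.4% lower and 13.4% higher). Limma-voom on recovered reads also gave 5 and 0, beside 6.52% and 6.00% of all. Without Cox7a1, 4 of 41 were lower (9.76%). The share that passed was thus near the background. The groups did not overlap for 19 of 42 members, 18 of them with HFD below control, beside 32.9% of all tested genes. Cox7a1, whose place below control follows from the filter, is among these 18 and among the 11 lower at an unadjusted p. The difference was negative for 37 of 42 members, Cox7a1 included, beside 50.1% of all tested genes. It was negative for 35 and 31 of 42 members under rescaling to the same sum and on plain read totals. Its median was -0.16 on the log2 scale, beside -0.00 over all tested genes. On plain read totals the median was -0.08 for the members, beside 0.061 over all tested genes. Under rescaling to the same sum it was -0.12, beside 0.037. By complex the median was -0.09 in II, -0.15 in III, -0.20 in IV and -0.14 in V.

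In HFD+Pc against HFD, the test was passed by 2 of 42 (4.76%), beside 0.628% of all tested genes, with 1 lower (0.446% of all) and 1 higher (0.182% of all), and 21 of 42 had an unadjusted p under 0.05, beside 15.6% of all tested genes. Of these 21, 12 were lower (8.03% of all) and 9 higher (7.61% of all). Limma-voom called 3 lower and 3 higher, beside 0.664% and 0.382% of all. Groups were apart for 17 of 42 members, beside 19.8% of all tested genes, 8 with HFD+Pc below HFD and 9 above. The median difference over the members was 0.02, beside 0.01 over all tested genes, and the lower and upper quartiles of the members were -0.26 and 0.19, beside -0.11 and 0.12.

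In HFD+Pc against control, 17 of 42 members passed (40.5%), beside 23.1% of all tested genes. Of these, 15 were lower (35.7%, beside 11.9% of all) and 2 were higher (4.76%, beside 11.1% of all). Without Cox7a1, 14 of 41 were lower (34.1%). At an unadjusted p under 0.05 there were 24 of 42, Cox7a1 among them, beside 38.2% of all tested genes. The members that passed as lower were 1 of 4 in complex II, 3 of 9 in III, 4 of 12 in IV and 7 of 17 in V. Groups were apart for 29 of 42 members, beside 42.8% of all tested genes, 20 with HFD+Pc below control and 9 above. Cox7a1, whose place below control follows from the filter, is among the 20. The median difference was -0.13, beside 0.01 over all tested genes. The 3 comparisons share libraries in pairs, so their values are given side by side and are not independent. In none of them did 23 of the 42 members pass. For 7 members, Atp5d, Atp5f1, Atp5g2, Atp5g3, Atp5k, Atp5o and Cox6b1, the 3 groups stood in the order control, HFD, HFD+Pc from high to low with no overlap, an order that 1.95% of all tested genes showed, and 0 members stood in the opposite order, which 1.74% of all genes showed.

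**Figure D2:**
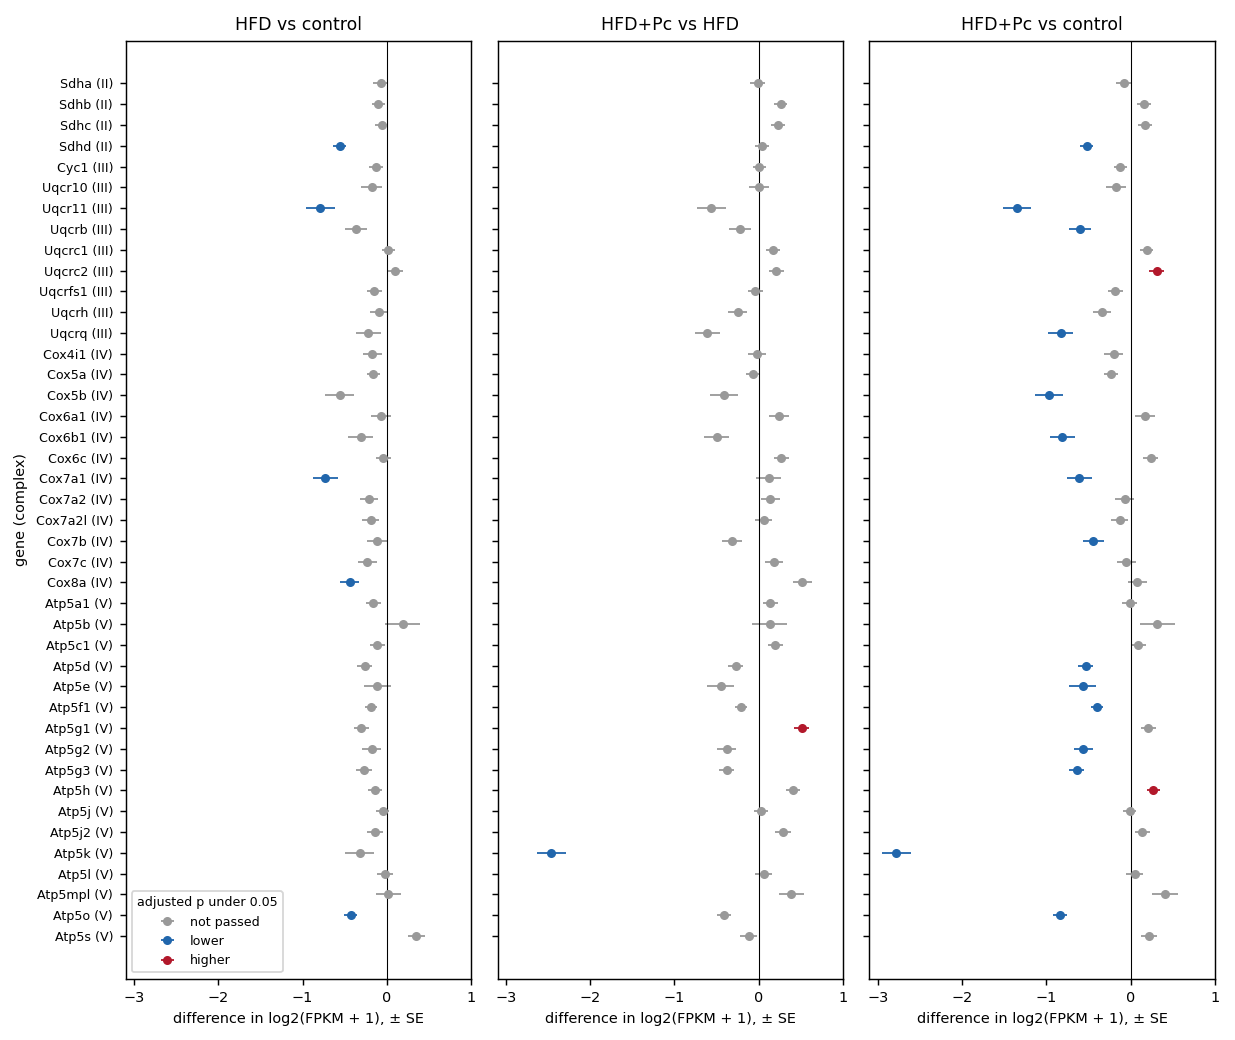
Difference in log2(FPKM + 1) with its standard error for each of the 42 tested genes (rows, complex in brackets) in the 3 comparisons (panels). Blue and red points passed an adjusted p of 0.05 and grey points did not; Atp5k lies at -2.46 and -2.78 in the HFD+Pc panels, and the blue points of the right panel are spread over all 4 complexes.

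In complex II, Sdhd was the most abundant gene per length (FPKM divides by the length of all exons of a gene) and the only one of 4 to pass a test. Sdhd encodes the small cytochrome b subunit that anchors the enzyme in the inner membrane with Sdhc. In the replicate order given above, Sdhd was at 170.1, 163 and 174 FPKM in control, 117, 111 and 117 in HFD and 111, 121 and 123 in HFD+Pc. All 6 high-fat libraries lay below the 3 control libraries, and the high-fat groups overlapped. Sdhd fell in HFD against control (log2 difference -0.56, SE 0.08, adjusted p = 0.00740) and in HFD+Pc against control (log2 difference -0.52, SE 0.08, adjusted p = 0.00378), and HFD+Pc minus HFD was 0.04 (SE 0.08, adjusted p = 0.853). The catalytic flavoprotein gene Sdha was at 119.8, 114 and 115 FPKM in control, 105, 111 and 117 in HFD and 105, 121 and 105 in HFD+Pc, with all groups overlapping and adjusted p of 0.637, 0.978 and 0.541 for HFD minus control, HFD+Pc minus HFD and HFD+Pc minus control. Sdhb, the iron-sulfur subunit, stood at 86.5, 94.0 and 89.5 FPKM in control, 88.4, 76.9 and 86.2 in HFD and 97.4, 103 and 101 in HFD+Pc. The HFD+Pc libraries of Sdhb lay above both other groups, but HFD+Pc minus HFD did not pass (log2 difference 0.26, SE 0.08, adjusted p = 0.181). Sdhc, the partner anchor, differed from control by -0.06 in HFD and 0.17 in HFD+Pc, so that the 2 anchor genes differed in sign in HFD+Pc, with the Sdhc difference not passing.

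Complex III held a large subunit that rose and 3 small subunits that fell in HFD+Pc against control. Uqcr11, a small subunit that joins the complex late, was at 117, 106 and 118 FPKM in control, 75.5, 64.1 and 57.1 in HFD and 36.5, 39.6 and 58.1 in HFD+Pc. Both high-fat groups lay below control without overlap, while HFD and HFD+Pc overlapped at their edges. Uqcr11 fell in HFD (log2 difference -0.79, SE 0.17, adjusted p = 0.0234) and in HFD+Pc (log2 difference -1.35, SE 0.17, adjusted p = 0.00171), to 57.7% and 39.4% of the control mean. The first of these calls was lost without any 1 of the 3 control libraries or HFD replicate 2 or 3, with an adjusted p of up to 0.0715. Uqcrq, a small membrane subunit, was at 137, 122 and 127 FPKM in control, 133, 108 and 93.0 in HFD and 60.2, 75.8 and 82.1 in HFD+Pc. The 3 HFD+Pc libraries were below the 6 others, and HFD overlapped control. Uqcrq fell in HFD+Pc against control (log2 difference -0.83, SE 0.15, adjusted p = 0.00607), with HFD+Pc minus HFD at -0.61 (SE 0.15, adjusted p = 0.108), which passed under limma-voom (-0.62, adjusted p = 0.0457).

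Uqcrb, the ubiquinone-binding subunit of complex III, was at 88.4, 93.2 and 89.9 FPKM in control, 76.0, 71.5 and 61.9 in HFD and 48.4, 62.7 and 69.1 in HFD+Pc. Control was above both other groups, and HFD+Pc replicates 3 and 4 lay within the HFD range. It fell in HFD+Pc against control (log2 difference -0.60, SE 0.13, adjusted p = 0.0125). Near-identical copies of Uqcrb elsewhere in the genome carried reads equal to 11.7% of its own. By limma-voom the difference was -0.53 with those reads added and -0.62 without them. Uqcrc2, a core protein of the complex, was at 75.2, 73.2 and 73.5 FPKM in control, 77.3, 73.4 and 87.4 in HFD and 92.9, 94.0 and 88.5 in HFD+Pc. The HFD+Pc group was above both others, and Uqcrc2 rose against control (log2 difference 0.31, SE 0.09, adjusted p = 0.0299). That call was lost without any 1 of the 3 control or 3 HFD+Pc libraries, with an adjusted p of up to 0.0962. Uqcrc1, the other core protein, differed by 0.19 in the same comparison and did not pass (adjusted p = 0.127).

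The electron-carrying subunits of complex III did not pass in any comparison. Uqcrfs1, the Rieske iron-sulfur protein and the most abundant of the complex per length, was at 176, 171 and 182 FPKM in control, 170.4, 149.8 and 159 in HFD and 151, 166 and 149 in HFD+Pc. Control lay above both high-fat groups without overlap, and the differences from control were -0.15 (SE 0.09, adjusted p = 0.313) in HFD and -0.18 (SE 0.09, adjusted p = 0.161) in HFD+Pc. Cyc1, which encodes cytochrome c1, was at 92.0, 92.0 and 87.8 FPKM in control, 82.9, 77.0 and 88.3 in HFD and 77.8, 86.5 and 85.0 in HFD+Pc. HFD overlapped control for Cyc1, HFD+Pc lay just below it, and the HFD+Pc difference from control was -0.12 (SE 0.08, adjusted p = 0.313). The hinge protein gene Uqcrh stood at -0.34 (SE 0.11, adjusted p = 0.0514) and the small subunit Uqcr10 at -0.17 (SE 0.12, adjusted p = 0.308) in the same comparison. Uqcrh passed there under 4 of the other ways of fitting and in 3 fits without a library, among them limma-voom on the recovered reads (log2 difference -0.36, adjusted p = 0.026).

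In complex IV, 4 of 12 tested genes passed as lower in HFD+Pc than control, Cox7a1 among them, and 0 as higher. At an unadjusted p under 0.05 limma gave 5 lower, Cox7a1 again among them, and 1 higher, beside 18.8% and 19.4% of all tested genes. Limma-voom gave 3 and 0 at an adjusted p under 0.05, beside 13.1% and 12.1%. Cox6b1, which faces the intermembrane space where the enzyme dimerises, was at 176, 178 and 198 FPKM in control, 162, 141 and 142 in HFD and 83.1, 105 and 129 in HFD+Pc. The groups formed 3 steps with no overlap, and the fall from control passed in HFD+Pc (log2 difference -0.81, SE 0.15, adjusted p = 0.00607), while the step from control to HFD did not (log2 difference -0.31, SE 0.15, adjusted p = 0.207). Cox5b, a zinc-binding subunit on the matrix side, was at 42.6, 40.2 and 42.2 FPKM in control, 31.0, 29.3 and 24.2 in HFD and 15.3, 22.5 and 26.2 in HFD+Pc. Control was above all 6 other libraries, and HFD+Pc replicate 4 lay among the HFD values. It fell in HFD+Pc (log2 difference -0.97, SE 0.17, adjusted p = 0.00585), to 51.2% of the control mean. HFD minus control was -0.56 (SE 0.17, adjusted p = 0.0704) for Cox5b, which passed under limma-voom (-0.57, adjusted p = 0.0358). Cox5a, its neighbour by name and a subunit without zinc, differed by -0.23 in HFD+Pc against control (SE 0.08, adjusted p = 0.0664). Cox7b, a small subunit encoded on chromosome X, was at 98.3, 89.1 and 98.8 FPKM in control, 95.3, 76.0 and 92.6 in HFD and 62.5, 70.4 and 78.0 in HFD+Pc. Its HFD+Pc libraries lay below control, HFD overlapped both, and the fall in HFD+Pc passed (log2 difference -0.44, SE 0.12, adjusted p = 0.0249). The Cox7b call was lost without control replicate 1 or 4, or HFD+Pc replicate 1 or 3, with an adjusted p of up to 0.0728.

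Cox8a, the only member of complex IV with clear liver expression that passed in HFD against control, encodes a short membrane subunit. It was at 264, 235 and 229 FPKM in control, 185, 168 and 183 in HFD and 226, 256 and 294 in HFD+Pc. The HFD libraries lay below the 6 others, and HFD+Pc overlapped control. Cox8a fell in HFD (log2 difference -0.44, SE 0.11, adjusted p = 0.0431), and HFD+Pc minus HFD was 0.52 (SE 0.11, adjusted p = 0.0741), which passed under limma-voom (0.52, adjusted p = 0.0384). The fall in HFD was lost in 7 of 9 fits that left out a library (all but those without HFD+Pc replicate 1 or 4), with an adjusted p of up to 0.127, and under 7 of 12 other alternatives, plain read totals among them. Cox7a1, the heart and skeletal muscle form of the Cox7a subunit, was near the filter, at 1.40, 1.21 and 1.45 FPKM in control, 0.611, 0.218 and 0.445 in HFD and 0.321, 0.781 and 0.553 in HFD+Pc. These levels rest on few reads: 14, 11 and 14 in control, 6, 2 and 4 in HFD and 3, 7 and 5 in HFD+Pc. Since Cox7a1 entered the test through its control libraries alone, and leaves it without any 1 of them, its calls as lower in HFD and in HFD+Pc than control follow from the filter and support nothing. Neither passed under limma-voom on the reads. Its liver counterpart Cox7a2 was at 109.7 ± 6.13 FPKM in control, 95.2 ± 9.47 in HFD and 105 ± 12.8 in HFD+Pc, and passed in none.

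Abundant genes of complex IV that passed in no comparison included Cox6a1 and Cox4i1. Cox6a1, the liver form of its subunit and the most abundant of the 49 genes per length in both high-fat groups, though below Atp5a1 in control, was at 346, 350.3 and 396 FPKM in control, 372, 298 and 375 in HFD and 373, 416 and 441 in HFD+Pc. All 3 groups overlapped, and no comparison passed (adjusted p of 0.753, 0.388 and 0.340). Cox4i1, the largest nuclear-encoded subunit, was at 199.9, 192 and 214 FPKM in control, 202, 169.8 and 167 in HFD and 159, 181 and 190.4 in HFD+Pc. HFD overlapped control, HFD+Pc lay below control, and the HFD+Pc difference from control was -0.20 (SE 0.11, adjusted p = 0.221). Cox6c, Cox7c and Cox7a2l, with mean levels from 42.3 FPKM (Cox6c in HFD) upward in every group, differed from control by 0.24, -0.05 and -0.13 in HFD+Pc, and none passed.

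**Figure D3:**
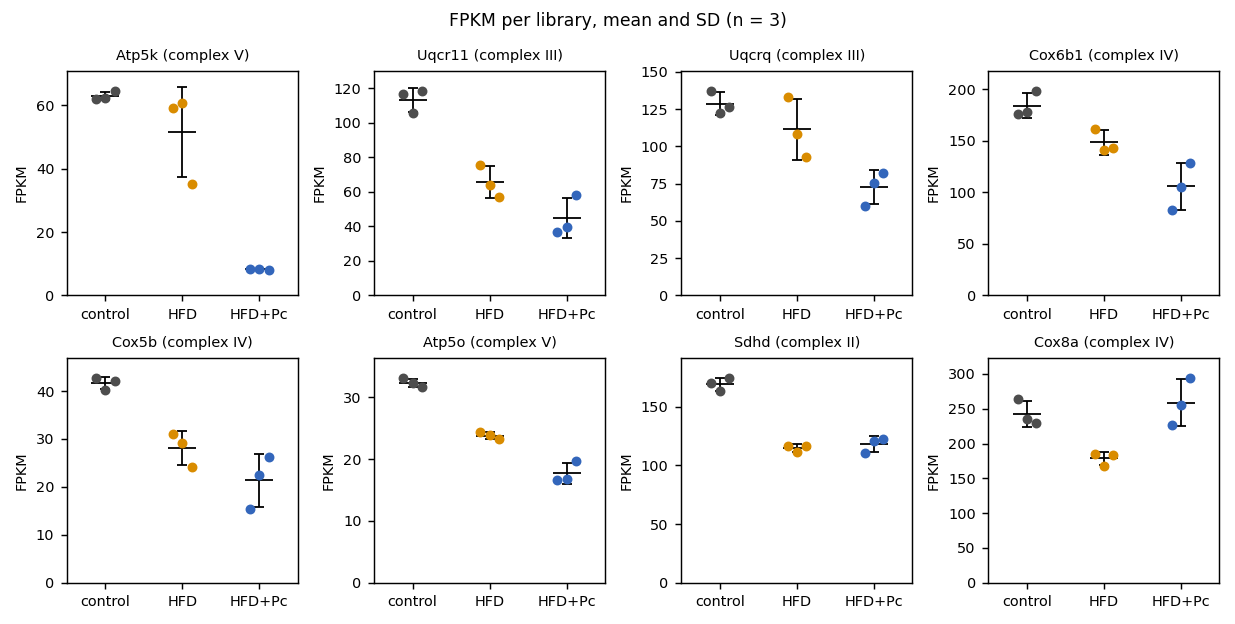
FPKM of 8 genes in each library (points), with the mean and SD of each group of 3 (black bar and whiskers), by group on the horizontal axis; vertical axes start at 0. Atp5k in HFD+Pc is near 8 FPKM in all 3 libraries, HFD replicate 3 is the low HFD point at 35.3, Sdhd is low in both high-fat groups, and Cox8a is low in HFD alone.

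Complex V had the largest single difference. Atp5k was at 62.1, 62.3 and 64.5 FPKM in control, 59.2, 60.7 and 35.3 in HFD and 8.45, 8.33 and 8.17 in HFD+Pc. HFD replicate 3 was low among the HFD libraries but above all HFD+Pc libraries, and no groups overlapped. The reads behind these levels were 715, 652 and 719 in control, 669, 642 and 366 in HFD and 91, 86 and 85 in HFD+Pc. Atp5k fell in HFD+Pc against HFD (log2 difference -2.46, SE 0.17, adjusted p = 0.00147), to 16.1% of the HFD mean, and against control (log2 difference -2.78, SE 0.17, adjusted p = 2.47e-04), to 13.2%. HFD minus control was -0.32 (SE 0.17, adjusted p = 0.270). Both calls passed under every alternative and without any 1 library. A near-identical pseudogene, Atp5k-ps2, had 12 reads over the 9 libraries. The stretch shown above for Atp5k carries the NRF1 letters in front of its start, as does that of Atp5g2.

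Atp5l, Atp5j2 and Atp5mpl of the membrane part passed in no comparison. Atp5l, the g subunit that sits beside e where ATP synthase dimerises, differed by 0.06 (SE 0.10, adjusted p = 0.807) in HFD+Pc against HFD and 0.05 (SE 0.10, adjusted p = 0.756) against control, and copies of Atp5l carried reads equal to 37.7% of its own. Atp5j2, the f subunit, stood at 0.29 (SE 0.09, adjusted p = 0.171) against HFD. Atp5mpl, a small proteolipid of the same region, was at 61.2 ± 4.02 FPKM in control, 62.7 ± 10.6 in HFD and 82.1 ± 13.9 in HFD+Pc and did not pass against control (log2 difference 0.41, SE 0.15, adjusted p = 0.0825). Atp5mpl passed as higher in HFD+Pc than control under 2 alternatives, without HFD+Pc replicate 1 (0.54, adjusted p = 0.0346) and with the length trend removed (0.48, adjusted p = 0.0380).

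The ring of c subunits is built from an identical mature protein that 3 genes encode, and of these genes Atp5g1 alone passed in HFD+Pc against HFD. Whether the genes differ from one another in that difference was not tested. Atp5g3, the most abundant, was at 161, 171 and 165 FPKM in control, 147, 128 and 138 in HFD and 96.4, 108 and 114 in HFD+Pc. Atp5g2 was at 52.8, 53.5 and 61.4 FPKM in control, 51.0, 51.4 and 44.8 in HFD and 33.6, 36.4 and 42.9 in HFD+Pc. Both stood in the order control, HFD, HFD+Pc from high to low with no overlap, and both fell in HFD+Pc against control. The difference was -0.64 (SE 0.09, adjusted p = 0.00319) for Atp5g3 and -0.56 (SE 0.11, adjusted p = 0.00822) for Atp5g2. HFD+Pc minus HFD was -0.38 (SE 0.09, adjusted p = 0.112) for Atp5g3 and -0.38 (SE 0.11, adjusted p = 0.152) for Atp5g2, neither of which passed. Atp5g1 was at 21.6, 21.5 and 24.5 FPKM in control, 19.3, 16.4 and 18.6 in HFD and 25.0, 25.2 and 28.7 in HFD+Pc. HFD was the lowest group and HFD+Pc the highest, with no overlap among the 3. Atp5g1 rose in HFD+Pc against HFD (log2 difference 0.51, SE 0.09, adjusted p = 0.0495), a call close to the threshold that was lost in all 9 fits leaving out a library (adjusted p of up to 0.151) and under 8 of 12 other alternatives, among them both rescaling to the same sum and plain read totals. Its differences from control were -0.30 (SE 0.09, adjusted p = 0.0721) in HFD and 0.21 (SE 0.09, adjusted p = 0.123) in HFD+Pc. Summed over the 3 genes, subunit c was at 244 ± 7.79 FPKM in control, 205 ± 11.2 in HFD and 170.0 ± 15.3 in HFD+Pc. Atp5g1 made up 9.22 ± 0.529% of that sum in control, 8.84 ± 0.423% in HFD and 15.5 ± 0.635% in HFD+Pc. These shares use the length of all exons of each gene, and the long exon model of Atp5g1 (4912 bases, compared with 2181 for Atp5g3) sets its FPKM.

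**Figure D4:**
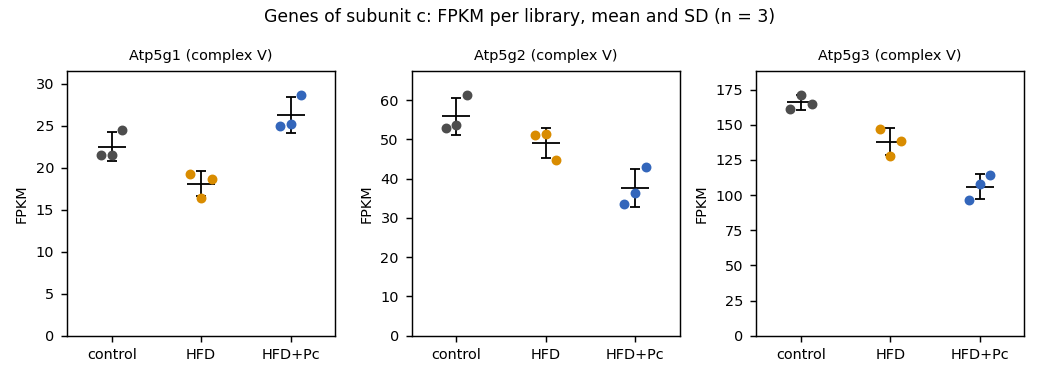
FPKM per library (points) with mean and SD (black) for the 3 genes of subunit c in control, HFD and HFD+Pc, on axes that start at 0. Atp5g2 and Atp5g3 step down from control to HFD+Pc, while Atp5g1 is lowest in HFD and highest in HFD+Pc.

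The stalks that join the head to the ring held 4 genes that fell and 1 that rose in HFD+Pc against control. Atp5o, which encodes OSCP at the top of the peripheral stalk, was at 33.1, 32.3 and 31.7 FPKM in control, 24.4, 23.9 and 23.2 in HFD and 16.7, 16.8 and 19.6 in HFD+Pc. The 3 groups stepped down with no overlap. Atp5o fell in HFD (log2 difference -0.43, SE 0.08, adjusted p = 0.0158) and in HFD+Pc against control (log2 difference -0.84, SE 0.08, adjusted p = 0.00105), to 73.7% and 54.8% of the control mean. The HFD call was lost without control replicate 1 or 2 (adjusted p of up to 0.0538). HFD+Pc minus HFD was -0.41 (SE 0.08, adjusted p = 0.0540), just outside the threshold, and passed under 6 alternatives, limma-voom among them (-0.44, adjusted p = 0.0411). Atp5f1, the b subunit of the same stalk, was at 75.9, 74.2 and 79.6 FPKM in control, 70.6, 64.9 and 65.4 in HFD and 58.4, 58.5 and 56.7 in HFD+Pc, again in 3 steps, and fell in HFD+Pc (log2 difference -0.40, SE 0.07, adjusted p = 0.00710). Atp5h, the d subunit, was at 76.5, 73.4 and 80.4 FPKM in control, 73.5, 66.1 and 69.7 in HFD and 88.1, 94.2 and 96.4 in HFD+Pc. Its HFD+Pc libraries were above the 6 others, and Atp5h rose against control (log2 difference 0.27, SE 0.08, adjusted p = 0.0394), with HFD+Pc minus HFD at 0.41 (SE 0.08, adjusted p = 0.0588). The Atp5h call against control was lost without any 1 of the 3 control libraries or HFD+Pc replicate 3 or 4 (adjusted p of up to 0.129). Copies of Atp5h carried reads equal to 20.3% of its own, and by limma-voom the difference from control was 0.27 both with and without them. Atp5j, the remaining subunit of the peripheral stalk, differed from control by -0.05 in HFD and -0.01 in HFD+Pc.

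Atp5d and Atp5e encode the small δ and ε subunits at the foot of the central stalk. Atp5d was at 119, 123 and 121 FPKM in control, 106, 101 and 94.7 in HFD and 74.6, 85.0 and 91.0 in HFD+Pc, in 3 steps without overlap, and fell in HFD+Pc against control (log2 difference -0.53, SE 0.09, adjusted p = 0.00556). Atp5e was at 65.7, 70.4 and 80.4 FPKM in control, 78.4, 67.6 and 55.2 in HFD and 39.0, 51.4 and 56.0 in HFD+Pc. Its HFD values spread over both other groups, control and HFD+Pc did not overlap, and it fell in HFD+Pc (log2 difference -0.57, SE 0.16, adjusted p = 0.0328). The Atp5e call was lost without any 1 of the 3 control libraries or HFD+Pc replicate 1 or 3 (adjusted p of up to 0.0997).

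The catalytic head did not pass in any comparison. Atp5a1, the α subunit and the most abundant gene of complex V per length, was at 376, 376 and 363 FPKM in control, 335, 310.4 and 356 in HFD and 348, 387 and 370.4 in HFD+Pc. HFD lay below control without overlap (log2 difference -0.16, SE 0.09, adjusted p = 0.301), and HFD+Pc spanned the control values. Atp5b, the catalytic β subunit, was at 291, 275 and 152 FPKM in control, 255, 254 and 279.7 in HFD and 275, 302 and 284 in HFD+Pc. Control replicate 4 was far below the 8 other libraries, all groups overlapped, and HFD+Pc minus control was 0.32 (SE 0.21, adjusted p = 0.308). Atp5c1, the γ subunit of the central stalk, differed from control by -0.11 (SE 0.09, adjusted p = 0.477) in HFD and 0.09 (SE 0.09, adjusted p = 0.509) in HFD+Pc. The coupling factor gene Atp5s, at 2.26 ± 0.277 FPKM in control, 3.14 ± 0.291 in HFD and 2.80 ± 0.313 in HFD+Pc, was higher in every HFD library than in every control library and just missed the threshold (log2 difference 0.35, SE 0.10, adjusted p = 0.0540). It passed as higher in HFD by limma with the length trend removed (0.38, adjusted p = 0.0344) and on plain read totals (0.41, adjusted p = 0.0384).

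The 15 members lower in HFD+Pc than in control had a median main transcript of 731 bases and a median protein of 111 residues, and the 27 others 955 bases and 146 residues. Cox7a1 (393 bases, 80 residues), lower through the filter, is among the 15. Main transcripts were picked from the annotation and need not be the form that liver expresses. Over the 42 members, Spearman's rho between the difference and main transcript length was 0.34 for HFD minus control, 0.21 for HFD+Pc minus HFD and 0.38 for HFD+Pc minus control. With the summed exon length that FPKM divides by, rho was 0.52, 0.24 and 0.44 over the members, beside 0.10, 0.06 and 0.11 over 10795 tested genes. These are descriptions across genes that share the same libraries. The 975 tested genes with a gene model under 1000 bases had median differences of -0.07, -0.04 and -0.09 in the same 3 comparisons, and 16.9% of them were lower in HFD+Pc than in control, beside 11.9% of all tested genes. HFD+Pc replicate 1 was the lowest of its group for 13 of the 15 lower members, and the 24 tested members with a main transcript under 1000 bases had a median level in it of -0.22 relative to their mean over libraries, compared with -0.04 and 0.01 in HFD+Pc replicates 3 and 4. Without HFD+Pc replicate 1, 12 members were lower and 2 higher than control. With a smooth trend in gene length removed from each library, 16 members were lower and 3 higher. The part of transcript length in these results was not tested beyond that.

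**Figure D5:**
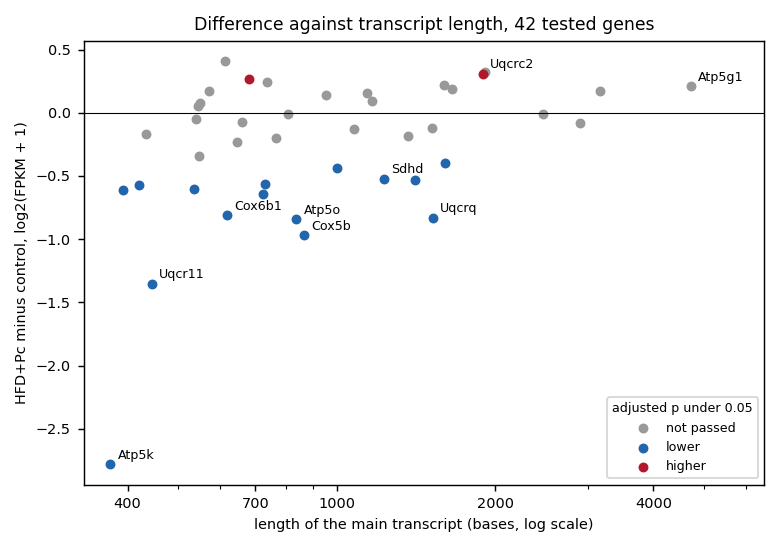
Difference in log2(FPKM + 1) between HFD+Pc and control (vertical) against the length of the main transcript in bases (horizontal, log scale) for the 42 tested genes, coloured by whether they passed. Atp5k and Uqcr11, the lowest points, have main transcripts of 371 and 445 bases. Other short genes lie on both sides of 0, such as Cox6b1 (618 bases) at -0.81, Cox7c (540 bases) at -0.05 and Atp5mpl (612 bases) at 0.41.

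Assembly factors, the proteins that help build the complexes, had calls in both directions. The list also holds the member Atp5s, under the name Dmac2l, which passed in no comparison. Of 37 tested, 1 was higher and 2 were lower in HFD than control, beside 4.61% and 5.35% of all tested genes. In HFD+Pc against control 3 were higher and 5 lower, beside 11.1% and 11.9% of all. The median difference was 0.03 in both comparisons. Uqcc3, an assembly factor of complex III, fell in HFD+Pc (log2 difference -0.71, SE 0.12, adjusted p = 0.00428), as did Pet100, an assembly factor of complex IV (log2 difference -0.73, SE 0.12, adjusted p = 0.00426). Lrpprc, which stabilises mitochondrial mRNA, rose (log2 difference 0.33, SE 0.08, adjusted p = 0.0206), as did the copper chaperone Sco1 (log2 difference 0.41, SE 0.11, adjusted p = 0.0252). In HFD, Uqcc3 (log2 difference -0.57, SE 0.12, adjusted p = 0.0210) and the copper chaperone Cox11 (log2 difference -0.59, SE 0.15, adjusted p = 0.0434) fell, and Bcs1l, which inserts the Rieske protein, rose (log2 difference 0.42, SE 0.09, adjusted p = 0.0247). In HFD+Pc against HFD, 0 of 37 passed by limma or limma-voom, and 4 were higher and 7 lower at an unadjusted p under 0.05.

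Among 12 tested electron carriers and carriers of ATP exchange, 1 was higher and 3 lower in HFD than control. The shares of all tested genes were 4.61% and 5.35%. In HFD+Pc against HFD 0 of the 12 passed, beside 0.628% of all. Against control, 1 was higher and 2 lower in HFD+Pc, beside 11.1% and 11.9% of all. The median differences of the list were -0.05, -0.09 and -0.07 in that order. In HFD+Pc against HFD, 2 were higher and 4 lower at an unadjusted p under 0.05, and 1 was lower by limma-voom. Cycs, the cytochrome c that links complexes III and IV, was at 22.0, 22.3 and 22.9 FPKM in control, 17.2, 16.9 and 17.6 in HFD and 12.8, 15.8 and 15.0 in HFD+Pc, 3 groups without overlap. Cycs fell in HFD (log2 difference -0.36, SE 0.08, adjusted p = 0.0305) and in HFD+Pc against control (log2 difference -0.60, SE 0.08, adjusted p = 0.00262). Etfb, a subunit of the flavoprotein that brings electrons from fatty acid oxidation, fell in HFD+Pc (log2 difference -1.50, SE 0.17, adjusted p = 0.00148), and Vdac3, a porin of the outer membrane, rose (log2 difference 0.35, SE 0.09, adjusted p = 0.0179). In HFD the adenine nucleotide carrier Slc25a5 fell (log2 difference -0.33, SE 0.08, adjusted p = 0.0399) and the uncoupling protein homologue Ucp2 rose (log2 difference 0.49, SE 0.10, adjusted p = 0.0231).

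Of 14 tested regulators of nuclear respiratory genes, 1 was lower in HFD and 3 in HFD+Pc than control, beside 5.35% and 11.9% of all. Of these regulators, 0 were higher in either and 0 passed between the high-fat groups (median differences -0.05, 0.01 and -0.04). Between the high-fat groups 1 was higher and 3 lower at an unadjusted p under 0.05, and 0 passed by limma-voom, which gave the same counts of 1 and 3 lower against control. Esrra, the nuclear receptor that works with PGC-1 coactivators on these genes, was at 9.59, 8.07 and 8.59 FPKM in control, 5.28, 5.42 and 4.55 in HFD and 3.96, 4.23 and 3.50 in HFD+Pc. Its 3 groups did not overlap, and Esrra fell in HFD (log2 difference -0.68, SE 0.09, adjusted p = 0.00667) and HFD+Pc (log2 difference -0.99, SE 0.09, adjusted p = 0.00105) against control. Crtc2, a CREB coactivator, fell in HFD+Pc (log2 difference -0.69, SE 0.10, adjusted p = 0.00302). Gabpa, whose protein binds ETS letters, differed by -0.19 (SE 0.09, adjusted p = 0.140), and Nrf1 was below the filter, at 0.845 ± 0.050 FPKM in control, 0.871 ± 0.114 in HFD and 0.982 ± 0.0761 in HFD+Pc.

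No subunit of complexes III to V that mitochondrial DNA encodes passed as lower in any comparison. Of 6 tested, 0 passed in HFD against control, 0 between the high-fat groups, and 1 was higher and 0 lower in HFD+Pc than control. In that last comparison 11.1% of all tested genes were higher and 11.9% lower. At an unadjusted p under 0.05 the counts over the 6 genes were 0, 3 higher and 1 higher, and limma-voom gave 0, 0 and 1. The gene that rose was mt-Co2, a core subunit of complex IV, at 120.0, 145 and 129 FPKM in control, 131, 187 and 147 in HFD and 184, 201 and 288 in HFD+Pc (log2 difference 0.74, SE 0.18, adjusted p = 0.0198). Nuclear copies of mitochondrial DNA can take or share such reads, so these levels are uncertain. The list summed to 22359 to 28548 FPKM in control, 25798 to 36104 in HFD and 26081 to 28566 in HFD+Pc, ranges that overlap. Nearly all of that sum is mt-Co1 and mt-Cytb, with control means of 15274 and 9733 FPKM. For mt-Co2, mt-Co3, mt-Atp6 and mt-Atp8 they were 131, 92.3, 203 and 4.15. The median difference of the list was 0.22 for HFD minus control, 0.46 for HFD+Pc minus HFD and 0.54 for HFD+Pc minus control. Of 19 tested genes of mitochondrial content, from the citric acid cycle, protein import and chaperones, 2 were lower in HFD and 4 in HFD+Pc than control. The shares of all tested genes were 5.35% and 11.9%. In this list 0 were higher and 0 passed between the high-fat groups. Limma-voom gave 4 and 5 lower and 0 between the high-fat groups, where 2 were lower at an unadjusted p under 0.05. The median differences were -0.16, 0.00 and -0.10. The import channel gene Timm23 fell in HFD (log2 difference -0.54, SE 0.09, adjusted p = 0.0111) and in HFD+Pc (log2 difference -0.70, SE 0.09, adjusted p = 0.00181). Tomm7 of the outer membrane channel fell in HFD (log2 difference -0.85, SE 0.21, adjusted p = 0.0379).

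Markers of other liver cells moved with the groups in part, and their part in the results above was not tested. Of all tested genes, 4.61% were higher and 5.35% lower in HFD than control, and 11.1% and 11.9% in HFD+Pc than control. Erythroid markers (5 of 6 tested) summed to 254 to 397 FPKM in control, 233 to 359 in HFD and 169 to 233 in HFD+Pc, and 3 were lower in HFD+Pc than control. Macrophage markers (12 of 12 tested) summed to 436 to 604 FPKM in control, 431 to 583 in HFD and 314 to 489.7 in HFD+Pc, with 1 higher in HFD and 2 lower in HFD+Pc than control. Endothelial markers (10 of 10 tested) summed to 91.1 to 102 FPKM in control, 62.7 to 80.2 in HFD and 72.5 to 82.2 in HFD+Pc, with 3 and 2 lower. Stellate cell markers (10 of 10 tested) summed to 83.5 to 86.0 FPKM in control, 67.5 to 78.9 in HFD and 68.9 to 83.7 in HFD+Pc, with 1 higher and 2 lower in HFD+Pc. Hepatocyte markers had 1 lower in HFD and 2 lower in HFD+Pc than control, with median differences of -0.36 and -0.08. At an unadjusted p under 0.05 by limma, 9 of 15 were lower and 0 higher in HFD than control. Of all tested genes, 14.4% were lower and 13.4% higher at that threshold. In HFD+Pc against control 4 of the 15 hepatocyte markers were lower at it. Limma-voom gave 4 lower in HFD and 3 in HFD+Pc at an adjusted p under 0.05. B and plasma cell markers (4 of 7 tested) summed to 20.2 to 27.5 FPKM in control, 48.9 to 77.9 in HFD and 24.6 to 35.2 in HFD+Pc, with 2 higher in HFD. Adipocyte markers (2 of 8 tested) summed to 2.07 to 2.40, 6.94 to 29.2 and 3.73 to 7.69, with 1, Cfd, higher in each high-fat group than control. Cfd was at 0.116, 0.128 and 0 FPKM in control. It entered the test through the high-fat libraries alone, so its calls support nothing, and by limma-voom 0 adipocyte markers passed against control. The other tested marker, Fabp4, differed from control by -0.03 in HFD and -0.38 in HFD+Pc and did not pass. Neutrophil markers (3 of 6 tested) summed to 3.69 to 9.69 FPKM in control, 6.27 to 16.3 in HFD and 7.44 to 7.66 in HFD+Pc, T and NK cell markers (3 of 7) to 4.88 to 5.73, 5.45 to 7.77 and 3.82 to 5.76, and cholangiocyte markers (2 of 6) to 18.0 to 25.5, 23.9 to 39.9 and 19.6 to 32.6, and 0 genes of these 3 lists passed by limma or limma-voom. By limma, 0 markers of any list passed in HFD+Pc against HFD, where 2 B and plasma cell markers were lower by limma-voom and 5 hepatocyte markers were higher and 6 macrophage markers lower at an unadjusted p under 0.05.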

How the data were processed

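The deposited table holds FPKM per gene and library, per the file headers, made by the authors; the submitters' processing notes name the aligner HISAT2 2.0.5 and the build GRCm39, and the counting tool and annotation are not given in the sources used here. Members were found by symbol, biotype and exon length of GENCODE M21, an annotation of the earlier GRCm38, used for names, lengths and copies. Genes and lists were chosen with earlier results of these data known. Members named in full were those that passed in any comparison, the most abundant of each complex, and set catalytic, electron-carrying and subunit c genes; of the other lists (assembly factors, electron carriers, regulators, mitochondrially encoded subunits, mitochondrial content and cell markers), up to 2 passing genes per direction.

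The 10988 genes at 1 FPKM or more in 3 or more of 9 libraries entered limma 3.58.1 in R 4.3.3 (lmFit, contrasts, and eBayes with its trend and robust options), fitted to log2(FPKM + 1) with 1 mean per group and no covariate, and Benjamini-Hochberg adjustment over all tested genes. A difference on that scale understates the change of low genes. Whole reads were recovered for all 26278 genes above 0 (100%, tolerance 0.02 reads), 25356 of them with the annotated length, and limma-voom on these reads was an added alternative. The main transcript of a gene was the protein-coding transcript ranked first by its APPRIS level in the annotation. Ties went to the longest coding sequence and then to the longest transcript. Copies were transcripts with at least 90% identity over at least 50% of the gene's main transcript (BLAST 2.17.0+). The fit was also run on simulated counts with the same relative spread for every gene, a simpler setting than these data, and the outcome is not given here. Alternatives were other pseudocounts, filters and scalings, 2 groups alone, plain eBayes, a replicate block, removal of a length trend and each library left out in turn; limma-voom, plain read totals and reads summed with copies were chosen after seeing the data. Proteins were not used here.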

Additional observations from a re-analysis of the deposited data

How the results depend on the processing

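Under the alternatives, 0 of the members' calls changed direction. Calls held in every fit that left out a library for 1 of 5 members in HFD against control (Sdhd), 1 of 2 in HFD+Pc against HFD (Atp5k) and 12 of 17 in HFD+Pc against control, and under every alternative for 0, 1 and 11. In HFD against control the count of 5 became 1 with no filter, 0 with the replicate block and 1 with the length trend removed and the block, and 1 to 7 without a library. In HFD+Pc against HFD the count of 2 became 1 with a 0.1 FPKM minimum, with no filter, with the 2 groups alone, with plain eBayes, with the block, with and without the length trend, and without any 1 library; it became 5 with the length trend removed (Cox8a and Atp5h higher and Atp5o lower in addition) and 6 by limma-voom. In HFD+Pc against control the count of 17 ranged from 12 to 18 without a library and was 13 with the block. Over all tested genes, the counts of 1095, 69 and 2538 ranged from 209 to 1375, from 3 to 138 and from 1058 to 2779 over the alternatives. The cause of these moves was not tested; no filter and the block leave more genes to adjust over or fewer degrees of freedom by construction. Deviations from the group means had correlations of -0.12 to 0.05 between libraries with the same replicate number. Libraries with different numbers were not compared, and the labels do not say what the numbers mean. Whether the numbers pair libraries thus cannot be told, and the block is not read as a paired test. With 3 libraries a group, the standard errors of the members were 0.07 to 0.21 on the log2 scale, and differences of that size were not detectable.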
